A study of Homo sapiens with 12 samples.

Results

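Gene expression was compared between HEK 293T cells that had spent 24 h with the compound PDP and cells that had spent 3 h with it. The groups were 1 µM PDP for 24 h and 1 µM PDP for 3 h, 2 samples each and 4 of the 12 samples of the series, and neither was a vehicle control. All of these cells had received PDP, so the ratio shows what differed between early and later exposure. HEK 293T cells come from human embryonic kidney and make the large T antigen of SV40, a viral protein that disables p53 and the retinoblastoma protein, and PDP is known here by its code name alone. Cells with 1 µM PDP for 72 h and cells with the solvent DMSO for 3 h (2 samples each) were used to place the levels. A DMSO group of 24 h was not analysed here, so time with PDP and time in culture cannot be told apart.

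For each of 58083 gene IDs the RNA tables gave 1 value per condition, pooled over its samples, in FPKM, fragments scaled to transcript length and library size. The 24 h values were divided by 1.04, the factor by which the control of the 24 h table exceeded that of the 3 h table. A gene was compared when 1 FPKM or more was measured at either time and neither value was 0, which left 14405 genes. Another 106 genes reached 1 FPKM in one condition and were listed at 0 in the other, 59 of them at PDP 3 h and 47 at PDP 24 h, and got no ratio. Just inside the minimum lay RGAG4, with 1.00 FPKM at PDP 24 h and 0.533 FPKM at PDP 3 h. Just outside it lay RNF144B, with 0.998 FPKM at PDP 24 h and 0.665 FPKM at PDP 3 h.

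With 1 pooled value per condition there was no spread between samples, no test could be made and the depth of each library is unknown. "At least 2-fold" therefore describes the size of the ratio and not its significance. Beside the log2 ratio of PDP 24 h over PDP 3 h stands an upper bound of its standard error (SE bound), which combines the standard errors implied by the authors' deposited statistics for each PDP condition against DMSO. The labels do not say whether the 2 samples of a group came from separate cultures. A change in part of the cells and a smaller change in all of them cannot be told apart in bulk RNA. Most of the listed HEK 293 markers were present in both conditions, such as VIM (254 FPKM at PDP 24 h, 235 FPKM at PDP 3 h), LIN28B (39.2 and 37.3 FPKM in the same order) and KRT8 (50.6 FPKM at PDP 24 h, 38.5 FPKM at PDP 3 h). Others were low: INA had 0.753 FPKM at PDP 24 h and 0.792 FPKM at PDP 3 h. PAX2 had 2.94 FPKM at PDP 24 h and 1.12 FPKM at PDP 3 h. The leukocyte gene PTPRC and the T cell gene CD3E were listed at 0 in both. Among markers of other cell types, COL1A1 had 22 FPKM at PDP 24 h and 9.91 FPKM at PDP 3 h, LUM had 2.13 FPKM at PDP 24 h and 1.09 FPKM at PDP 3 h, and the other fibroblast markers COL1A2 and DCN stayed under 0.3 FPKM. Their part in the ratios was not tested.

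G-quadruplexes are four-stranded structures that guanine-rich DNA or RNA can form, and they are frequent in the promoters of transcribed genes. Molecules that bind them can interfere with polymerases, helicases and splicing, and transcripts then respond on different time scales. Immediate early genes react within minutes to hours, whereas stress programmes, metabolic adaptation and shifts in the cell cycle take longer to show.

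Most transcripts had similar levels at both times. The median log2 ratio of PDP 24 h over PDP 3 h was -0.01, its quartiles were -0.31 and 0.38, and 65.8% of genes lay within 0.5 of 0. At least 2-fold higher at PDP 24 h were 1140 genes (7.91% of those compared), and at least 2-fold lower were 438 genes (3.04%). Differences of at least 4-fold were found for 181 genes that were higher and 68 that were lower. The median SE bound was 0.54, so a 2-fold difference exceeded 2 SE bounds for 178 higher genes (1.27% of 13995 genes with a bound) and 153 lower genes (1.09%). Higher genes thus outnumbered lower ones mainly where the bound was wide. CAV2 lay just past 2-fold, with 13.2 FPKM at PDP 24 h and 6.62 FPKM at PDP 3 h, and ARFGEF3 just short of it, with 2.95 FPKM at PDP 24 h and 1.48 FPKM at PDP 3 h.

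**Figure D1:**
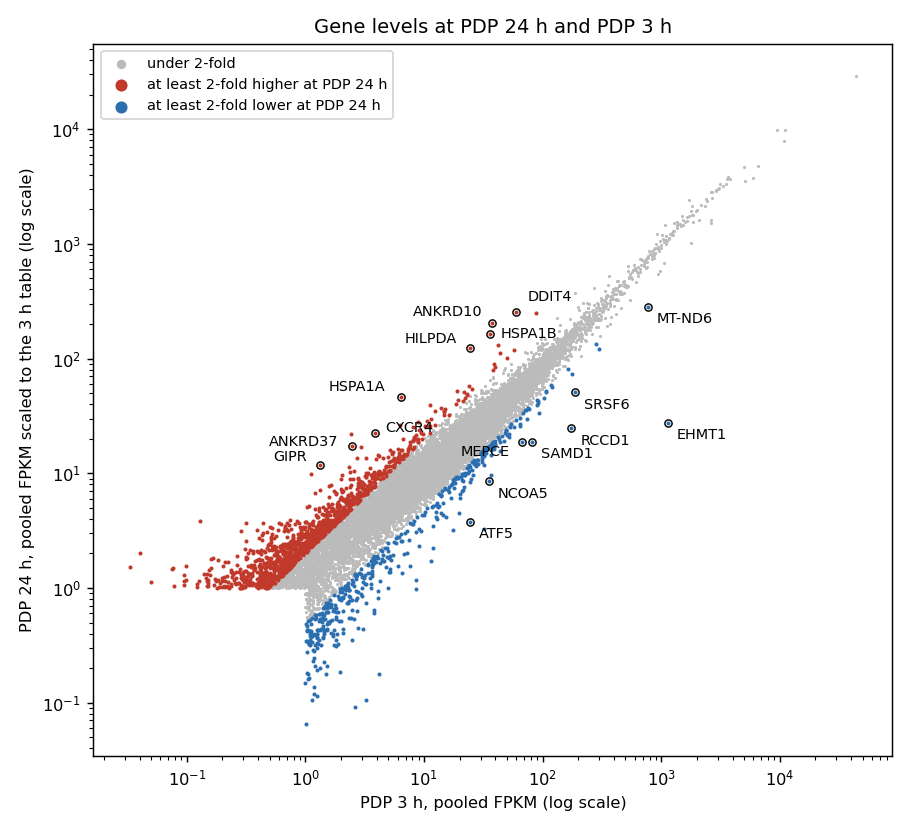
Pooled FPKM of each gene at PDP 24 h (vertical axis, scaled to the 3 h table) against PDP 3 h (horizontal axis), both on log scales, with genes at least 2-fold higher at PDP 24 h in red, at least 2-fold lower in blue and the others in grey. Most genes lie along the diagonal, EHMT1 lies far below it, and the straight edges at the lower left come from the minimum of 1 FPKM; 5 genes at or under 0.02 FPKM in one condition are not drawn.

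The farthest gene below the diagonal was EHMT1, which encodes a methyltransferase for lysine 9 of histone H3. Its level was 27.6 FPKM at PDP 24 h, against 1137 FPKM at PDP 3 h (log2 ratio -5.36, SE bound 0.58). The authors' deposited table called 17 genes between PDP 3 h and DMSO (0.115% of 14751), and EHMT1, RCCD1, SAMD1, MGLL, PVT1 and ATP2A1 were among them. EHMT1 measured 28.5 FPKM at PDP 72 h and 30.3 FPKM in DMSO, so the 3 h value stood alone among the 4 conditions. Its neighbour ARRDC1, within the same locus of the tables, had 18.7 FPKM at PDP 24 h and 16.5 FPKM at PDP 3 h.

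RCCD1, which encodes a protein with RCC1-type repeats, had the same course. It measured 24.6 FPKM at PDP 24 h and 174 FPKM at PDP 3 h (log2 ratio -2.83, SE bound 0.57), with 30.2 FPKM at PDP 72 h and 16.4 FPKM in DMSO. SAMD1, whose product binds unmethylated CpG islands, measured 18.8 FPKM at PDP 24 h and 81.8 FPKM at PDP 3 h (log2 ratio -2.12, SE bound 0.28), with 27.7 FPKM at PDP 72 h and 17.6 FPKM in DMSO. In EHMT1, RCCD1 and SAMD1 the 3 h level was the highest of the 4 conditions and the 24 h level was within 2-fold of DMSO. MLLT10, a reader of unmodified histone H3 that works with the DOT1L methyltransferase, also had its highest level at PDP 3 h, but by less. It measured 23.9 FPKM at PDP 24 h and 49.5 FPKM at PDP 3 h (log2 ratio -1.05, SE bound 0.95), with 39.7 FPKM at PDP 72 h and 33.0 FPKM in DMSO. The authors' deposited table did not call MLLT10 between PDP 3 h and DMSO (log2 ratio 0.59, standard error 0.71).

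MGLL and PVT1 had an early peak and a second increase. MGLL, the lipase that splits monoacylglycerols, had 4.35 FPKM at PDP 24 h and 14.4 FPKM at PDP 3 h (log2 ratio -1.72, SE bound 0.86), against 28.6 FPKM at PDP 72 h and 2.41 FPKM in DMSO. PVT1, a long noncoding RNA next to MYC, had 9.62 FPKM at PDP 24 h and 36.6 FPKM at PDP 3 h, with 28.7 FPKM at PDP 72 h and 6.73 FPKM in DMSO, but its SE bound of 6.07 exceeded its log2 ratio of -1.93. Both genes thus had their lowest PDP level at 24 h. ATP2A1, the calcium pump of fast muscle, had an early peak and no such second increase. It measured 1.73 FPKM at PDP 24 h and 11.4 FPKM at PDP 3 h (log2 ratio -2.72, SE bound 1.49), with 2.2 FPKM at PDP 72 h and 1.49 FPKM in DMSO.

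Such early peaks were a minority. Among the 160 lower genes that reached 10 FPKM at PDP 24 h or PDP 3 h, the DMSO level lay nearer to that of PDP 3 h in 152, measured as a log2 distance. It lay nearer to that of PDP 24 h in 8, which were the 7 genes EHMT1, RCCD1, SAMD1, MLLT10, MGLL, PVT1 and ATP2A1 and the unannotated CH17-472G23.2. Among the 126 higher genes of the same level, DMSO lay nearer to PDP 3 h in 122 and nearer to PDP 24 h in 3, CA11, RP11-14N7.2 and RP11-386I14.4, and was listed at 0 in 1. For the 3 genes CA11, RP11-14N7.2 and RP11-386I14.4 the low value was that of PDP 3 h, as in CA11, a carbonic anhydrase relative without enzyme activity, with 17.0 FPKM at PDP 24 h, 8.29 FPKM at PDP 3 h and 12.9 FPKM in DMSO. Over all levels, DMSO lay nearer to PDP 24 h in 11.8% of the 1140 higher genes and 18.3% of the 438 lower genes, against 22.8% and 18.5% of all genes with any higher or lower value.

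The 72 h level showed which differences went on. Of the 126 higher genes at 10 FPKM or more, 83 had a level at PDP 72 h at or past that of PDP 24 h, 35 lay between PDP 24 h and PDP 3 h, and 8 were back at or past the 3 h level. A level at or past that of PDP 24 h was found for 65.9% of these 126 genes, 47.5% of all 1140 higher genes and 51.7% of genes with any higher value. Of the 160 lower genes, 75 went on to a level at or below that of PDP 24 h, 80 lay between and 5 were back. The first share was 46.9% of these 160 genes, 45.7% of all 438 lower genes and 38.6% of genes with any lower value. The higher genes that were back at 72 h were TNFAIP8, TMEM187, EHHADH, MIR503HG, TMCC1-AS1 and the pseudogenes RPL3P4, RPS28P7 and GLUD1P8. EHHADH, an enzyme of peroxisomal fatty acid oxidation, had 11.4 FPKM at PDP 24 h and 4.75 FPKM at PDP 3 h (log2 ratio 1.26, SE bound 0.55), with 3.48 FPKM at PDP 72 h.

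**Figure D2:**
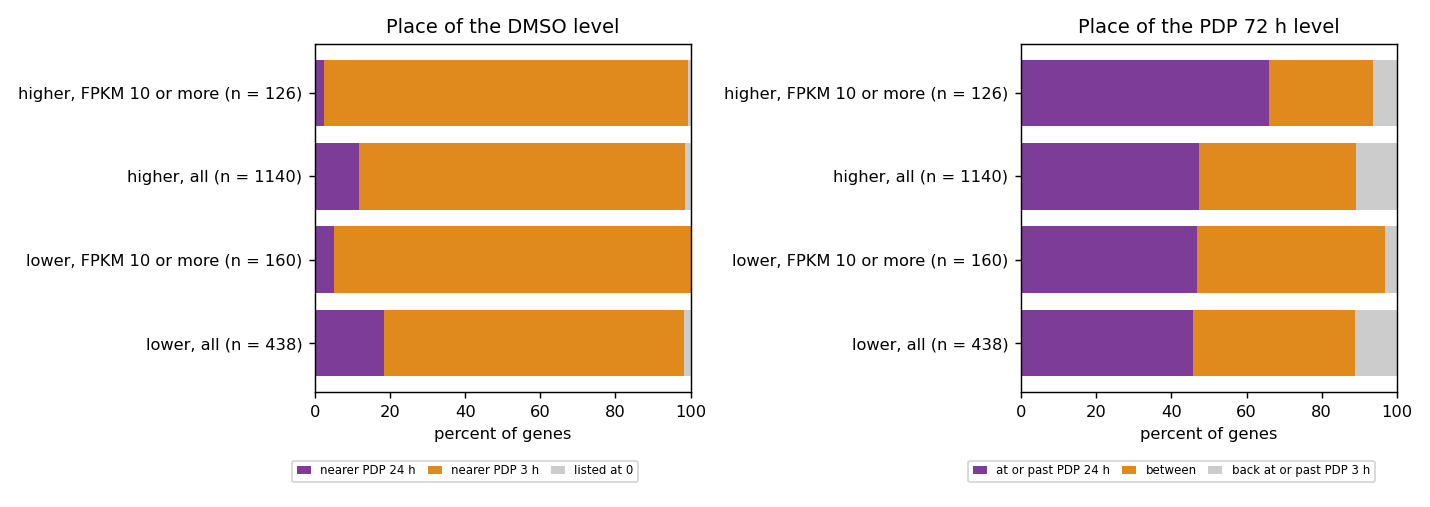
Share of genes at least 2-fold higher or lower at PDP 24 h than PDP 3 h (percent, with gene numbers at the left) by where the DMSO level lies (left) and where the PDP 72 h level lies (right). In all 4 sets DMSO is nearer to PDP 3 h for most genes, and among the 126 higher genes of 10 FPKM or more, 83 have a 72 h level at or past that of PDP 24 h.

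The gene lists below were chosen with earlier results of these data known, so their shares beside those of all genes describe the lists and test nothing. SR proteins are serine- and arginine-rich factors that bind exons and guide splice site choice. Of 14 SR splicing factor genes, 13 had a ratio below 0, 3 were at least 2-fold lower and none was 2-fold higher, with a median log2 ratio of -0.74. Over all compared genes the median was -0.01, 50.5% of genes lay below 0 and 3.04% were at least 2-fold lower. SRSF6 measured 50.8 FPKM at PDP 24 h and 187 FPKM at PDP 3 h (log2 ratio -1.88, SE bound 0.29), with 39.9 FPKM at PDP 72 h and 189 FPKM in DMSO. TRA2B, a regulator of neuronal and muscle exons, had 122 FPKM at PDP 24 h and 302 FPKM at PDP 3 h (log2 ratio -1.31, SE bound 0.35). SRSF7 had 134 FPKM at PDP 24 h and 285 FPKM at PDP 3 h (log2 ratio -1.09, SE bound 0.29).

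The difference was past 2 SE bounds in 8 of the 14 SR genes when no 2-fold minimum was set. SRSF2, SRSF1 and SRSF10 had log2 ratios of -0.87, -0.73 and -0.75. SRSF12 alone in the list had a ratio above 0, with 7.19 FPKM at PDP 24 h and 5.47 FPKM at PDP 3 h. SRSF1 and SRSF6 then parted: SRSF1 measured 736 FPKM at PDP 72 h and 278 FPKM at PDP 24 h, whereas SRSF6 stayed low.

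Kinases that phosphorylate SR proteins had no common direction. Of 8 CLK, SRPK and related kinase genes, 3 lay above 0 and 5 below it, with a median of -0.19. CLK3 was at the 2-fold line, with 43.0 FPKM at PDP 24 h and 21.4 FPKM at PDP 3 h (log2 ratio 1.00, SE bound 0.87), and CLK1 had a log2 ratio of -0.53. The hnRNPs, which bind nascent RNA and often oppose SR proteins, were lower by less. All 21 hnRNP genes lay below 0, none past 2-fold, with a median of -0.30 and a range of -0.75 to -0.04. HNRNPH1 had 577 FPKM at PDP 24 h and 971 FPKM at PDP 3 h, while HNRNPA1 had 1540 FPKM at PDP 24 h and 1579 FPKM at PDP 3 h.

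Among 10 genes of BET proteins, the 7SK complex and P-TEFb, the lowest ratios were those of MEPCE and HEXIM1 (list median -0.25). P-TEFb is the kinase that releases paused RNA polymerase II, and the 7SK complex holds it inactive. MEPCE, which caps the 7SK RNA, measured 18.9 FPKM at PDP 24 h and 67.3 FPKM at PDP 3 h (log2 ratio -1.83, SE bound 0.30), with 13.4 FPKM at PDP 72 h and 57.9 FPKM in DMSO. HEXIM1, the inhibitor bound to that RNA, measured 16.1 FPKM at PDP 24 h and 37.0 FPKM at PDP 3 h (log2 ratio -1.20, SE bound 0.30), with 23.5 FPKM at PDP 72 h and 31.0 FPKM in DMSO. The other 8 members of this list stayed within 2-fold, and 3.04% of all compared genes were at least 2-fold lower. The kinase subunit gene CDK9 had a log2 ratio of 0.38 (SE bound 0.46), and LARP7, which binds the end of the 7SK RNA, had -0.29 (SE bound 0.61). BRD2, a bromodomain reader of acetylated histones, had a ratio of -0.11.

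NCOA5, a coactivator of nuclear receptors, was about 4-fold lower at PDP 24 h without an early peak. It measured 8.48 FPKM at PDP 24 h and 35.4 FPKM at PDP 3 h (log2 ratio -2.06, SE bound 0.30), with 2.39 FPKM at PDP 72 h and 34.6 FPKM in DMSO. The gene lies on chromosome 20 from 46060985 to 46089952 (GRCh38.p7). ATF5, a transcription factor of the stress response, had 3.74 FPKM at PDP 24 h and 24.5 FPKM at PDP 3 h (log2 ratio -2.71, SE bound 1.5). P2RY11, a receptor for extracellular ATP, had 3.27 FPKM at PDP 24 h and 31.8 FPKM at PDP 3 h (log2 ratio -3.28, SE bound 2.05). P2RY11 shares its locus with PPAN and with a PPAN-P2RY11 read-through transcript, so how reads were split between them is uncertain.

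Ribosome assembly factors had lower levels at PDP 24 h, while ribosomal protein genes had ratios near 0. Of 29 assembly factor genes, 28 lay below 0, 5 were at least 2-fold lower and none was higher, with a median log2 ratio of -0.55. The share at least 2-fold lower was 3.04% over all compared genes. RRS1, needed to build the large subunit, measured 20.7 FPKM at PDP 24 h and 51.7 FPKM at PDP 3 h (log2 ratio -1.32, SE bound 0.29), with 10.1 FPKM at PDP 72 h and 49.3 FPKM in DMSO. GRWD1, a histone-binding assembly factor, had 29.9 FPKM at PDP 24 h and 74.1 FPKM at PDP 3 h (log2 ratio -1.31, SE bound 0.47). NIP7 and PPAN, both of large subunit maturation, had log2 ratios of -1.25 (SE bound 0.82) and -1.17 (SE bound 0.53). NOP2, which methylates ribosomal RNA, had 51.7 FPKM at PDP 24 h and 107 FPKM at PDP 3 h.

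FBL, the methyltransferase of box C/D ribonucleoproteins, was the assembly factor gene above 0, with 323 FPKM at PDP 24 h and 318 FPKM at PDP 3 h. By contrast, all 77 ribosomal protein genes lay between -0.17 and 0.23 on the log2 scale, with a median of -0.01. RPL39 had 3648 FPKM at PDP 24 h and 3803 FPKM at PDP 3 h, and RPS2 had 3645 FPKM at PDP 24 h and 3592 FPKM at PDP 3 h. Host genes of small nucleolar RNAs, which guide modification of ribosomal RNA, were also close to 0 (18 genes, median -0.05, none past 2-fold). SNHG17 and SNHG15 were the lowest of them at -0.78 and -0.74.

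The mitochondrial genome encodes subunits of the respiratory chain. Of its 13 compared transcripts, 12 were below 0 and MT-ND6 was at least 2-fold lower, with a median log2 ratio of -0.53. Over all compared genes, 50.5% lay below 0 and 3.04% were at least 2-fold lower. Protein-coding genes above 100 FPKM in DMSO had a median of -0.16. MT-ND6, the gene on the light strand, measured 282 FPKM at PDP 24 h and 768 FPKM at PDP 3 h (log2 ratio -1.45, SE bound 0.29), with 19.1 FPKM at PDP 72 h and 672 FPKM in DMSO. MT-ND1, MT-ND2, MT-CYB and MT-ND3 lay between -0.80 and -0.68. MT-CO1 did not share this, with 9751 FPKM at PDP 24 h and 9519 FPKM at PDP 3 h (log2 ratio 0.03, SE bound 0.32), and MT-ND4 had a ratio of -0.09. The kit named in the labels selects mRNA, and how evenly it captures mitochondrial transcripts was not tested.

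Of 40 genes of DNA replication, 35 lay below 0, 2 were at least 2-fold lower and none was higher, with a median of -0.33. The 2 genes past 2-fold compare with 3.04% over all genes, and protein-coding genes of 20 to 50 FPKM in DMSO had a median of -0.18. GINS3, a subunit of the replicative helicase, had 16.2 FPKM at PDP 24 h and 38.8 FPKM at PDP 3 h (log2 ratio -1.26, SE bound 0.31). UNG, which removes uracil from DNA, had 41.4 FPKM at PDP 24 h and 91.8 FPKM at PDP 3 h (log2 ratio -1.15, SE bound 0.29). CDC6, which loads that helicase, and the flap nuclease gene FEN1 both had -0.89, and PCNA, the polymerase clamp, had -0.52 (SE bound 0.28). CDT1, the partner of CDC6, ran the other way with 47.9 FPKM at PDP 24 h and 38.3 FPKM at PDP 3 h.

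Mitotic genes lay nearer to 0. None of 30 was past 2-fold, and the median was -0.23. CCNB1, the mitotic cyclin B1, had 106 FPKM at PDP 24 h and 160 FPKM at PDP 3 h (log2 ratio -0.60, SE bound 0.31), while TOP2A had 90.8 FPKM at PDP 24 h and 89.9 FPKM at PDP 3 h. DNA damage checkpoint genes had no member past 2-fold among 23 (median -0.12), with CLSPN lowest at -0.94 and ATR highest at 0.33. Replication-dependent histone genes were mostly under the minimum, and 7 of 25 were compared (median 0.22). HIST1H2BD had 1.13 FPKM at PDP 24 h and 2.51 FPKM at PDP 3 h, and most such transcripts lack the poly(A) tail by which mRNA kits capture RNA.

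**Figure D3:**
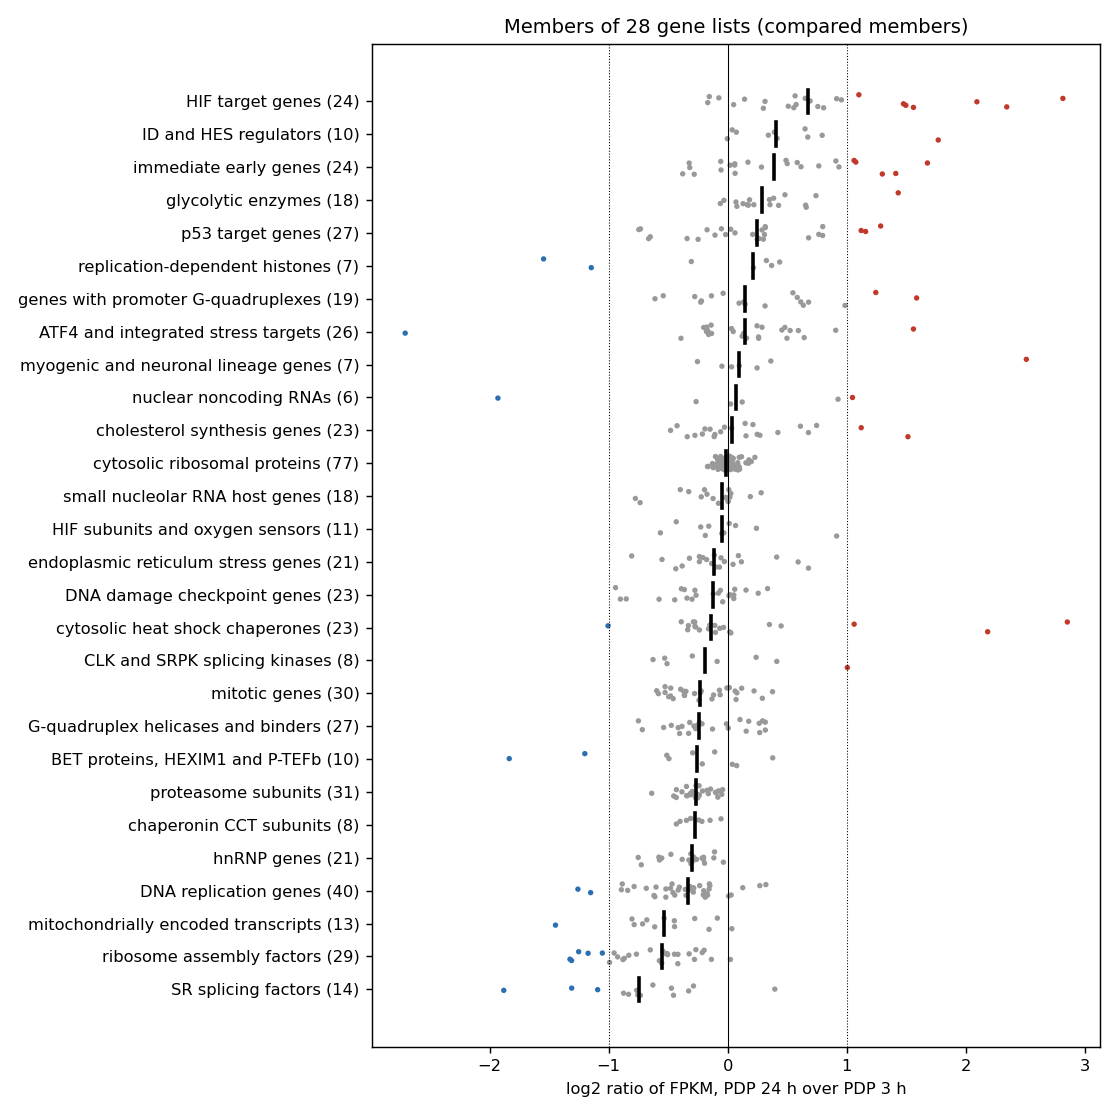
Log2 ratio of PDP 24 h over PDP 3 h (horizontal axis) for the compared members of 28 gene lists, ordered by their median (black bar), with the number of members in brackets; red and blue points are at least 2-fold higher and lower, and dotted lines mark 2-fold. SR splicing factors have the lowest median (-0.74), HIF target genes the highest (0.67), and ribosomal protein genes cluster at 0.

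At the other end, targets of the hypoxia-inducible factors (HIF) were higher at PDP 24 h. HIF is a transcription factor pair whose alpha subunit is destroyed when oxygen and iron are plentiful, and its targets serve glycolysis, growth of vessels and restraint of growth signalling. Of 24 target genes, 21 lay above 0, 7 were at least 2-fold higher and none was 2-fold lower, with a median of 0.67. The 2-fold difference exceeded 2 SE bounds in 6 of the 7. Over all compared genes, 7.91% were at least 2-fold higher.

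ANKRD37, a small ankyrin-repeat protein gene that HIF induces, measured 17.4 FPKM at PDP 24 h and 2.48 FPKM at PDP 3 h (log2 ratio 2.81, SE bound 1.19), with 171 FPKM at PDP 72 h and 3.10 FPKM in DMSO. HILPDA, which coats lipid droplets, measured 123 FPKM at PDP 24 h and 24.3 FPKM at PDP 3 h (log2 ratio 2.34, SE bound 0.65), with 772 FPKM at PDP 72 h and 25.5 FPKM in DMSO. DDIT4, an inhibitor of the growth kinase complex mTORC1, measured 257 FPKM at PDP 24 h and 60.3 FPKM at PDP 3 h (log2 ratio 2.09, SE bound 0.31), with 596 FPKM at PDP 72 h and 64.9 FPKM in DMSO. In ANKRD37, HILPDA and DDIT4 the 3 h level was below that of DMSO, and each later level was above the one before it.

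The core of the HIF binding site is ACGTG. The promoters of ANKRD37 and DDIT4 are shown because these were the 2-fold higher HIF targets whose promoter held that core, a choice made after the values were seen. Each is the 250 bases before the transcription start, on the plus strand, from RefSeq on GRCh38.p14, with ACGTG or its complement CACGT in capitals. The ANKRD37 window is chr4:185396591-185396840 and the DDIT4 window is chr10:72273674-72273923.
ANKRD37: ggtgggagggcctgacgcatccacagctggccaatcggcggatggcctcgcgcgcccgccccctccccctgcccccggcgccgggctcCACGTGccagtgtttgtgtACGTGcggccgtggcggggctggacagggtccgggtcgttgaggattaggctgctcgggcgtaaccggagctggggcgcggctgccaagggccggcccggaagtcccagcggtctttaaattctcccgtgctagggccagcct
DDIT4: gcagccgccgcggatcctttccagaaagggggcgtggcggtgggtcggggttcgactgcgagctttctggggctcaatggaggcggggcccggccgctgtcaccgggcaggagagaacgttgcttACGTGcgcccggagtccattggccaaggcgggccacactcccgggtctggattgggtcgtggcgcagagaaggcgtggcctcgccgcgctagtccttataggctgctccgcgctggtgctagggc
The ANKRD37 window held 2 matches on the printed strand and 1 on the other, and 2 of these overlap. The DDIT4 window held 1. Promoter sequences of 300 bases, from 250 before to 50 after the start, were found for 19 of the HIF targets, and 8 of them held ACGTG on either strand. Of the 4 with a sequence among the 2-fold higher targets, 2 held it, and 26.8% of the promoters of all compared protein-coding genes did.

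The remaining 2-fold higher targets were VLDLR, a lipoprotein receptor gene (1.56, SE bound 0.53), PFKFB4, which makes an activator of glycolysis (1.5, SE bound 0.54), SLC2A3, a glucose transporter gene (1.48, no bound), and NDRG1 (1.10, SE bound 0.39). NDRG1 had 54.1 FPKM at PDP 24 h and 25.2 FPKM at PDP 3 h. Not all well known targets differed. ADM, the vasoactive peptide adrenomedullin, had 14.4 FPKM at PDP 24 h and 16.0 FPKM at PDP 3 h, and 107 FPKM at PDP 72 h. VEGFA, the vessel growth factor, had a log2 ratio of 0.31 (SE bound 0.53), and the glucose transporter gene SLC2A1 had 0.30 (SE bound 0.43).

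The HIF subunits and oxygen sensors themselves stayed within 2-fold in all 11 genes (median -0.05). HIF1A had 57.3 FPKM at PDP 24 h and 67.0 FPKM at PDP 3 h, and VHL, which marks the alpha subunit for destruction, had 66.1 FPKM at PDP 24 h and 65.6 FPKM at PDP 3 h. EGLN3, a sensor that is itself a target, had the highest ratio of this list at 0.91 (SE bound 0.68). Of 18 glycolytic enzyme genes, 16 lay above 0 and 1 was past 2-fold, with a median of 0.28. Over all compared genes, 49.5% lay above 0 and 7.91% were at least 2-fold higher. The glycolytic gene past 2-fold was ENO2, with 28.7 FPKM at PDP 24 h and 10.6 FPKM at PDP 3 h, whose SE bound of 2.01 exceeded its log2 ratio of 1.43. LDHA, lactate dehydrogenase A, had 1450.1 FPKM at PDP 24 h and 1078 FPKM at PDP 3 h (log2 ratio 0.43, SE bound 0.29).

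Immediate early genes encode transcription factors and feedback regulators that are switched on without new protein synthesis. Of 24 compared, 5 were at least 2-fold higher and none was lower, with a median of 0.39. Among all compared genes these shares were 7.91% and 3.04%. ATF3 measured 37.3 FPKM at PDP 24 h and 14.0 FPKM at PDP 3 h (log2 ratio 1.41, SE bound 0.34), with 188 FPKM at PDP 72 h and 15.0 FPKM in DMSO. JUN, a subunit of AP-1, measured 79.3 FPKM at PDP 24 h and 38.0 FPKM at PDP 3 h (log2 ratio 1.06, SE bound 0.28), with 272 FPKM at PDP 72 h and 43.5 FPKM in DMSO. IER3, a regulator of cell survival, had 15.0 FPKM at PDP 24 h and 6.10 FPKM at PDP 3 h (log2 ratio 1.3, SE bound 0.48).

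The 3 h levels of ATF3 and JUN were slightly under those of DMSO, so the early time showed no peak for them. FOS, the AP-1 partner of JUN, was low throughout, with 3.64 FPKM at PDP 24 h and 1.14 FPKM at PDP 3 h (log2 ratio 1.68, SE bound 1.67). ZFP36, which speeds decay of AU-rich mRNAs, had 2.96 FPKM at PDP 24 h and 1.41 FPKM at PDP 3 h. EGR1, FOSB, IER2 and SPRY2 stayed between -0.06 and 0.06.

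The inducible HSP70 genes were among the highest. HSPA1A, a cytosolic chaperone gene, measured 46.6 FPKM at PDP 24 h and 6.45 FPKM at PDP 3 h (log2 ratio 2.85, SE bound 0.33), with 59.2 FPKM at PDP 72 h and 8.10 FPKM in DMSO. HSPA1B measured 162 FPKM at PDP 24 h and 35.8 FPKM at PDP 3 h (log2 ratio 2.18, SE bound 0.28), with 527 FPKM at PDP 72 h and 64.9 FPKM in DMSO. These genes are nearly identical, so reads may have been split between them, and their sum was 209 FPKM at PDP 24 h and 42.2 FPKM at PDP 3 h (log2 ratio 2.31). The sum in DMSO was 73.0 FPKM, above that of PDP 3 h, and HSPA1B was among the genes that the authors' deposited table called between PDP 3 h and DMSO.

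Most other chaperone genes did not follow HSP70. Of 23 cytosolic heat shock genes, 3 were at least 2-fold higher, 1 was lower and 16 lay below 0, with a median of -0.14. Over all compared genes, 7.91% were at least 2-fold higher and 3.04% lower. HSPB8, a small heat shock protein gene, was the other higher one, at 2.58 FPKM at PDP 24 h and 1.24 FPKM at PDP 3 h. DNAJA1, a partner of HSP70, had 58.3 FPKM at PDP 24 h and 117 FPKM at PDP 3 h (log2 ratio -1.0, SE bound 0.29). DNAJB1, also induced by heat, had 31.8 FPKM at PDP 24 h and 38.8 FPKM at PDP 3 h, against 205 FPKM at PDP 72 h. HSPA8 and HSP90AA1, the abundant constitutive and inducible chaperones, had ratios of -0.27 and -0.28. The 8 subunit genes of the chaperonin CCT, which folds actin and tubulin, lay between -0.43 and -0.06.

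**Figure D4:**
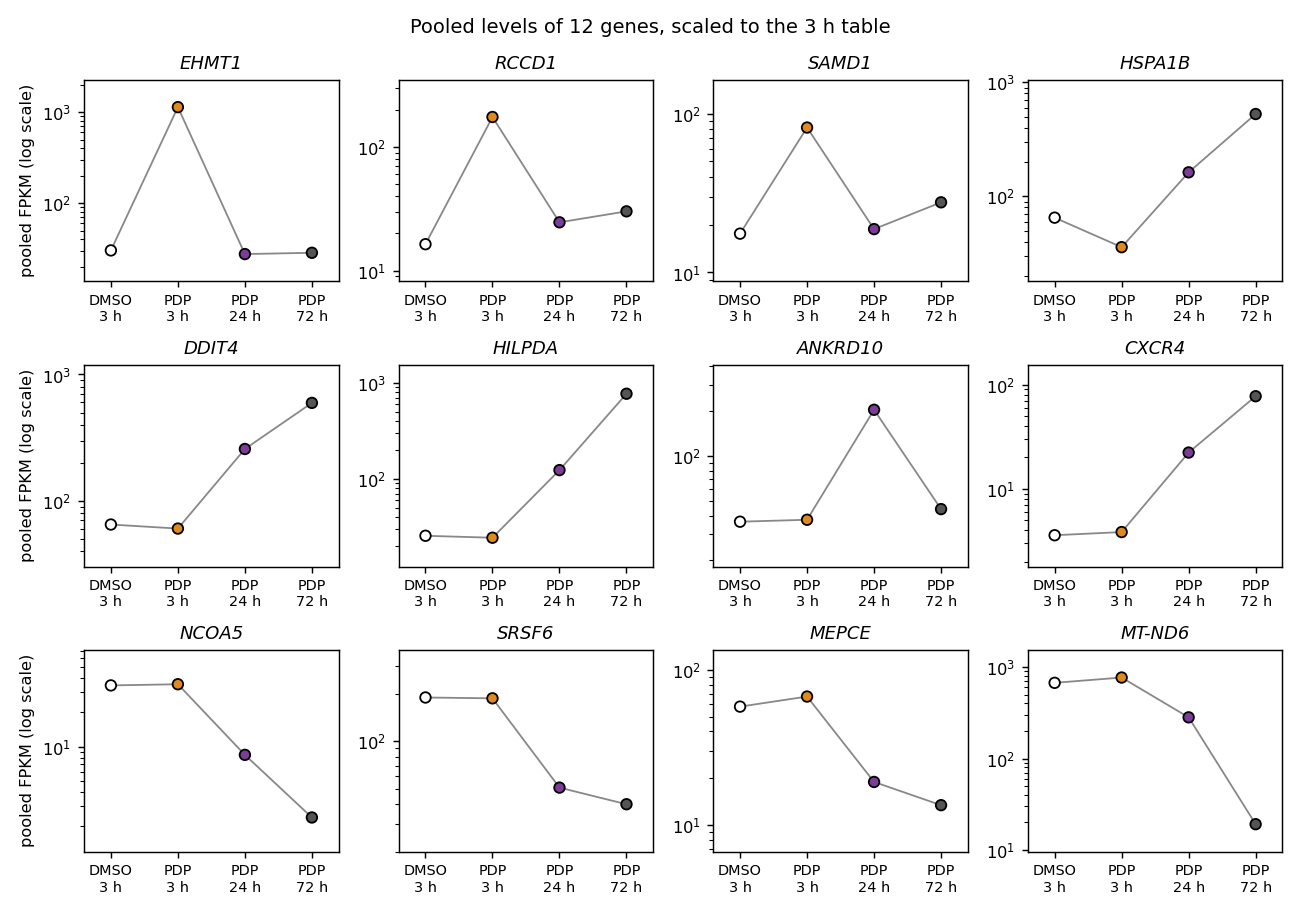
Pooled FPKM (vertical axes, log scale, scaled to the 3 h table) of 12 genes in DMSO 3 h and at PDP 3 h, 24 h and 72 h, with 1 pooled value per point and no error bar; lines join the values. EHMT1, RCCD1 and SAMD1 have their highest point at PDP 3 h, ANKRD10 at PDP 24 h, and HSPA1B, DDIT4, HILPDA and CXCR4 at PDP 72 h.

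None of 21 genes of endoplasmic reticulum stress was past 2-fold (median -0.11), and HSPA5, the main chaperone of that compartment, had 148 FPKM at PDP 24 h and 137 FPKM at PDP 3 h. Targets of ATF4, the factor of the integrated stress response, had a median of 0.15 over 26 genes. VLDLR was the 1 higher and ATF5 the 1 lower gene past 2-fold, against 7.91% higher and 3.04% lower over all compared genes. CHAC1, which degrades glutathione, had 3.60 FPKM at PDP 24 h and 1.92 FPKM at PDP 3 h. ATF4 itself had 595 FPKM at PDP 24 h and 576 FPKM at PDP 3 h.

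In the sterol pathway the largest ratio was that of a regulator. INSIG1, which holds the sterol-sensing factor SREBP in the endoplasmic reticulum, measured 251 FPKM at PDP 24 h and 87.9 FPKM at PDP 3 h (log2 ratio 1.51, SE bound 0.31), with 482 FPKM at PDP 72 h and 104 FPKM in DMSO. HSD17B7, an enzyme of cholesterol synthesis, had 16.5 FPKM at PDP 24 h and 7.60 FPKM at PDP 3 h (log2 ratio 1.12, SE bound 0.54). The other 21 of 23 genes stayed within 2-fold, and the median was 0.03. A share of 7.91% of all compared genes was at least 2-fold higher. HMGCS1, early in the pathway, had 0.75 (SE bound 0.33), whereas CYP51A1, which acts on lanosterol, had -0.48 (SE bound 0.29).

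Targets of p53 were mixed, in a line whose p53 is bound by large T antigen. Of 27, 3 were at least 2-fold higher and none was lower, with a median of 0.25. The shares over all compared genes were 7.91% higher and 3.04% lower. DDB2, which detects ultraviolet damage, had 12.9 FPKM at PDP 24 h and 5.28 FPKM at PDP 3 h (log2 ratio 1.28, SE bound 0.55). TP53INP1 and BBC3, both of which promote cell death, had 1.16 (SE bound 1.15) and 1.12 (SE bound 0.83). CDKN1A, the p21 inhibitor of cell cycle kinases, had 13.4 FPKM at PDP 24 h and 8.36 FPKM at PDP 3 h (log2 ratio 0.68, SE bound 0.38). MDM2, which degrades p53, ran the other way with 27.2 FPKM at PDP 24 h and 43.1 FPKM at PDP 3 h.

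Genes known for a G-quadruplex in their promoter did not share a direction. Of 19 compared, 12 lay above 0, 7 below it and 2 were at least 2-fold higher, with a median of 0.15. Among all compared genes, 7.91% were at least 2-fold higher. MYB, a transcription factor of blood progenitors, had 4.35 FPKM at PDP 24 h and 1.45 FPKM at PDP 3 h (log2 ratio 1.59, SE bound 0.78). PDGFA, a growth factor gene, had 4.67 FPKM at PDP 24 h and 1.97 FPKM at PDP 3 h (log2 ratio 1.24, SE bound 0.68). MYC, the growth regulator, had 409 FPKM at PDP 24 h and 273 FPKM at PDP 3 h (log2 ratio 0.58, SE bound 0.31), with 235 FPKM at PDP 72 h and 271 FPKM in DMSO. Its level was thus highest at 24 h. KIT, a receptor tyrosine kinase gene, lay just under 2-fold at 0.99, and HRAS and CCND1 had -0.54 and -0.61.

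Proteins that bind or unwind G-quadruplexes had no member past 2-fold among 27 (median -0.24). The helicase gene DDX5 had 228 FPKM at PDP 24 h and 375 FPKM at PDP 3 h (log2 ratio -0.72, SE bound 0.39). DHX36, a helicase specific for the structure, had 38.9 FPKM at PDP 24 h and 45.1 FPKM at PDP 3 h. Proteasome subunit genes were all 31 below 0, none past 2-fold, with a median of -0.27, and protein-coding genes of 50 to 100 FPKM in DMSO had a median of -0.23.

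CXCR4, the receptor for the chemokine CXCL12, measured 22.3 FPKM at PDP 24 h and 3.85 FPKM at PDP 3 h (log2 ratio 2.54, SE bound 0.52), with 77.5 FPKM at PDP 72 h and 3.59 FPKM in DMSO. ANKRD10, an ankyrin-repeat protein gene, measured 205 FPKM at PDP 24 h and 37.5 FPKM at PDP 3 h (log2 ratio 2.45, SE bound 0.43), with 44.2 FPKM at PDP 72 h and 36.4 FPKM in DMSO. CXCR4 thus went on to a higher level at 72 h, whereas ANKRD10 was high at 24 h alone. ANKRD10-IT1, a transcript within the same locus, had 10.4 FPKM at PDP 24 h and 10.2 FPKM at PDP 3 h.

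GIPR, the receptor for an incretin hormone of the gut, had 11.9 FPKM at PDP 24 h and 1.34 FPKM at PDP 3 h (log2 ratio 3.15, SE bound 1.22), with 10.7 FPKM at PDP 72 h and 2.2 FPKM in DMSO. Its promoter and that of RCCD1 held a motif of 4 runs of GGG separated by 1 to 7 bases, a pattern that can fold into a G-quadruplex. Both are shown as the genes of largest ratio in each direction that hold the motif and reach 10 FPKM, leaving out P2RY11, and these limits were set after the values were seen. Each is the 250 bases before the start on the plus strand, with the motif or its complement in capitals, from RefSeq on GRCh38.p14. The GIPR window is chr19:45667971-45668220 and the RCCD1 window is chr15:90954634-90954883.
GIPR: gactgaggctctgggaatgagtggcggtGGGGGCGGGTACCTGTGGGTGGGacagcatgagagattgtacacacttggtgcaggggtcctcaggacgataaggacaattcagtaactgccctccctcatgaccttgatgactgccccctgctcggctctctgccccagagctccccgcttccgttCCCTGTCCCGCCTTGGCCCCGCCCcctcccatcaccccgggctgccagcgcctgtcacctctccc
RCCD1: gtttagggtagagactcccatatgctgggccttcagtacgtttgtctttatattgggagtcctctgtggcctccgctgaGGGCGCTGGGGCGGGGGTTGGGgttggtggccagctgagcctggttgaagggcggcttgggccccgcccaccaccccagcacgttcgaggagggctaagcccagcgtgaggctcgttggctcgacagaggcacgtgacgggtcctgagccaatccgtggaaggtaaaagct
The GIPR window held the motif once on each strand and the RCCD1 window held it on the printed strand, although GIPR was higher and RCCD1 lower at PDP 24 h. A match says that the letters are there, not that a structure forms.

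The largest ratios of all belonged to transcripts near the minimum. GPR20, an orphan receptor gene, had 1.52 FPKM at PDP 24 h and 0.0331 FPKM at PDP 3 h. DNAI1, a dynein chain of cilia, had 2.02 FPKM at PDP 24 h and 0.0403 FPKM at PDP 3 h, but 2.2 FPKM in DMSO, and its SE bound of 13.1 exceeded its log2 ratio of 5.65. Of the 12 largest increases among protein-coding and long noncoding genes, GIPR alone was above 3 FPKM at PDP 24 h, and SNAI3, PLAU and PCDH8 were among the others. MYOD1, the muscle master regulator, had 1.83 FPKM at PDP 24 h and 0.322 FPKM at PDP 3 h, and the other 6 compared genes of the muscle and neuron list stayed within 2-fold. Of the lower genes, ZNF385D, NAV3, SHISA4, LINC00304, FERMT3 and SENP3-EIF4A1 were likewise under 4 FPKM in both conditions.

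NEAT1, the scaffold of paraspeckles, had 47.7 FPKM at PDP 24 h and 23.1 FPKM at PDP 3 h (log2 ratio 1.05, SE bound 0.86), with 299 FPKM at PDP 72 h and 22.3 FPKM in DMSO. Another nuclear RNA, MALAT1, had 26.4 FPKM at PDP 24 h and 13.9 FPKM at PDP 3 h (log2 ratio 0.93, SE bound 0.63). Of 6 compared genes of this list, NEAT1 was past 2-fold higher and PVT1 lower, against 7.91% higher and 3.04% lower over all compared genes. In the list of ID and HES regulators, which hold back differentiation, 9 of 10 lay above 0 (median 0.40), against 49.5% over all compared genes. HES7 had 3.31 FPKM at PDP 24 h and 0.973 FPKM at PDP 3 h, and ID1 had 20.6 FPKM at PDP 24 h and 11.9 FPKM at PDP 3 h (log2 ratio 0.79, SE bound 0.41).

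The direction of the ratio went with the level of a gene. Among protein-coding genes with 1 to 2 FPKM in DMSO, 22.6% were at least 2-fold higher at PDP 24 h and 3.41% lower, with a median of 0.50 (820 genes). At 20 to 50 FPKM the shares were 0.442% higher and 2.41% lower, with a median of -0.18 (2944 genes). Above 100 FPKM they were 0.121% and 0.969%, with a median of -0.16 (826 genes). Among genes under 1 FPKM in DMSO the minimum of 1 FPKM selected those that were higher, so their median of 1.00 is set by the choice of genes. The lowest median of any level class was -0.23, at 50 to 100 FPKM, beside -0.74 for the SR list, -0.55 for ribosome assembly factors, -0.30 for hnRNP genes and -0.27 for proteasome genes. The part of RNA amount per cell, depth or library composition in this trend was not tested.

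**Figure D5:**
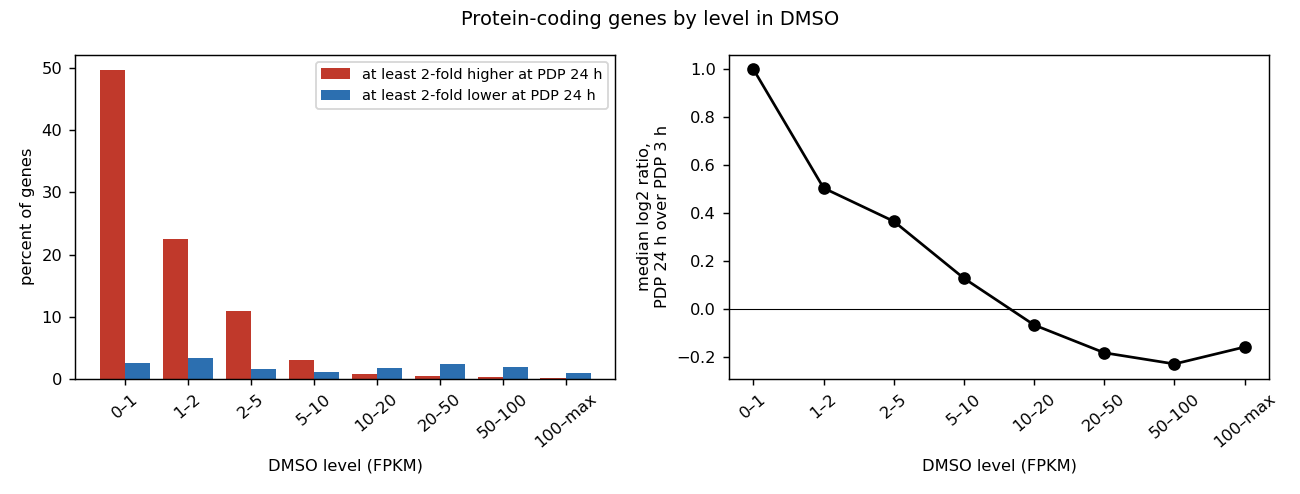
Protein-coding genes grouped by their DMSO level in FPKM (horizontal axes): percent at least 2-fold higher (red) or lower (blue) at PDP 24 h than PDP 3 h (left) and median log2 ratio of PDP 24 h over PDP 3 h (right). Higher genes prevail up to 10 FPKM and lower genes above it, and the median crosses 0 there.

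Kinds of transcript also differed in these shares. Of 678 long noncoding RNA genes, 26.3% were at least 2-fold higher at PDP 24 h and 4.13% lower (median 0.42), against 5.92% and 1.90% of 12186 protein-coding genes (median -0.03). Pseudogenes not annotated as transcribed had 15.3% higher and 6.78% lower (354 genes, median 0.38). Transcribed pseudogenes had 11.9% higher and 9.79% lower (235 genes, median 0.12). Genes with no matched biotype had 16.7% higher and 13.8% lower (926 genes, median 0.04). The median DMSO level was 1.87 FPKM for long noncoding genes, 1.48 FPKM for pseudogenes not annotated as transcribed and 14.5 FPKM for protein-coding genes. It was 3.19 FPKM for transcribed pseudogenes and 1.97 FPKM for genes with no matched biotype. The part of level in these shares was not tested.

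The share of lower genes among expressed ones varied with locus length without a steady trend. In loci with 1 protein-coding gene of at least 10 FPKM in DMSO, 3.13% of 672 loci up to 10 kb and 3.51% of 713 loci of 10 to 20 kb were at least 2-fold lower. The share was 1.14% at 20 to 50 kb, 1.60% at 50 to 100 kb and 2.08% at 100 to 200 kb, and of 257 loci over 200 kb none was. Loci with a peak in the authors' deposited list of G-quadruplex pull-down peaks were compared within a length class. At 20 to 50 kb the median log2 ratio was -0.04 in 887 loci with a peak and -0.14 in 1067 without, and at 50 to 100 kb it was 0.01 in 1024 loci with a peak and -0.09 in 432 without. At least 2-fold higher at PDP 24 h were 7.33% of loci with a peak and 4.50% of those without at 20 to 50 kb, and 6.93% with a peak and 3.01% without at 50 to 100 kb. At least 2-fold lower were 1.01% with and 1.59% without at 20 to 50 kb, and 1.17% with and 1.62% without at 50 to 100 kb. The median DMSO level was 16.3 FPKM with and 20 FPKM without a peak at 20 to 50 kb, and 14.2 FPKM with and 13.4 FPKM without at 50 to 100 kb, and the difference between loci with and without a peak was not tested.

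Promoter motifs were counted in the RefSeq promoters of 10043 protein-coding genes. The GGG motif, on either strand, was in 47.1% of 539 promoters of higher genes, 23.7% of 190 promoters of lower genes and 35.1% of all 10043, against 24.0% of 27305 promoters in RefSeq. Among genes with at least 10 FPKM in DMSO the shares were 33.3% of 24 higher, 25.8% of 120 lower and 32.8% of 6247, so the excess in higher genes was seen with weakly expressed genes included. The HIF core ACGTG was in 19.1% of higher, 29.5% of lower and 26.8% of all promoters. Its share at 10 FPKM or more was 20.8% of 24 higher, 35.0% of 120 lower and 29.2% of all 6247 promoters. The heat shock element (GAA, TTC and GAA, each 2 bases apart) was in 0.928% of higher, 0.526% of lower and 0.299% of all promoters. TATAAA was in 7.79%, 8.95% and 5.09% in the same order, TGACTCA in 4.27%, 4.21% and 2.52%, and TGACGTCA in 2.60%, 0.526% and 3.38%. The median GC content was 67% for higher, 64.5% for lower and 66% for all promoters.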

How the data were processed

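mRNA of HEK 293T cells was sequenced, with a stranded kit per the labels, in groups of 2 samples, taken from the labels. HISAT2 2.0.5, Cufflinks 2.2.1, Trim Galore 0.4.4 and GRCh38.p7 stand in the submitters' processing notes, with settings not given in the sources used here. The authors' deposited tables, 1 per time point, hold FPKM pooled over a condition, a p-value and q-value of PDP against control, and a test statistic (a score). The log2 fold change over that statistic gave the standard error. For some genes this standard error was wide although the authors' deposited q-value was low. DLG2 at PDP 3 h over DMSO had a log2 ratio of 2.97, a standard error of 6.74 and a q-value of 0.0434. Of the authors' deposited list of 51446 pull-down peaks only positions were used. Depth per library is unknown.

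The control of the 24 h and 72 h tables had the values of the 3 h control times 1.04 and 0.968 (SD of the log2 ratio 0.000842 over 13455 genes and 0.000854 over 13368 genes with FPKM above 1), and PDP values were divided by these factors. The SE bound is the root of the summed squares of both standard errors. It counts the shared control in both and takes the PDP conditions as independent. Of the genes, 56980 matched a symbol and 40177 a biotype, and 28 symbols turned into dates were restored by ID. Summed FPKM were 598460 at PDP 24 h and 647670 at PDP 3 h, and equal sums would add 0.114 to each log2 ratio.

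Members and lists were chosen with earlier results of these data known, and 3 of 31 lists and 4 printed promoters after values were seen. Named genes were the 12 largest ratios in each direction among protein-coding and long noncoding genes, the 6 largest in each direction with at least 20 FPKM, up to 4 members past 2-fold per list or the 2 most abundant, and all genes called at a q-value under 0.05 in the authors' deposited 3 h table. Other members named were chosen after their values were seen. Promoters came from RefSeq (GRCh38.p14) and motifs were searched on both strands. The scaling between tables and the count of genes past 2-fold were tested on simulated data, and the other steps were not. Tables were handled in pandas 2.3.3 and NumPy 2.4.6 under Python 3.11.15, and figures drawn with Matplotlib 3.10.9.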

Additional observations from a re-analysis of the deposited data

How the results depend on the processing

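Counts of genes at least 2-fold higher and lower at PDP 24 h were 1140 and 438. They were 1294 and 384 with no scaling between tables, 1476 and 325 at equal FPKM sums, 1159 and 425 with the median set to 0, and 1138 and 430 without genes that the authors' deposited 3 h table called. Other settings moved them by over 1.5 times: 297 and 195 with 5 FPKM in either condition, 555 and 255 with 1 FPKM in both, 2834 and 1332 with no minimum, 416 and 240 with 1 FPKM added, 722 and 231 for protein-coding genes, 178 and 153 past 2 SE bounds, 2902 and 2018 at a log2 ratio of 0.5, and 181 and 68 at a log2 ratio of 2. With at least 10 FPKM in DMSO, a setting chosen after seeing the data, they were 42 and 156, so lower genes then outnumbered higher ones. The cause was not tested. The largest shift of a list median was 0.26, for histones (-0.04 with 1 FPKM in both, 0.22 as reported), and 0.19 among other lists, and 5 lists changed sign under 1 or 2 settings: HIF subunits, ribosomal proteins, endoplasmic reticulum stress, histones and small nucleolar RNA hosts. Of 384 recomputed ratios of named genes, 14 moved by more than the SE bound (0.5 where a gene had none), each with 1 FPKM added, and none past 2-fold changed sign. No paired analysis was possible because the tables hold values pooled over the samples of a condition, and leaving out a sample was not run for the same reason. Whether 1 library carried a difference, such as that of EHMT1, cannot be seen.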

Other observations

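Of 63 tRNA modification enzyme genes, a list chosen after values were seen, 56 had lower levels at PDP 24 h than at PDP 3 h, 6 of them at least 2-fold, and none was 2-fold higher (median log2 ratio -0.42). Among all compared genes, 3.04% were at least 2-fold lower. TRMO, which methylates a threonylcarbamoyl-modified adenosine, had 4.19 FPKM at PDP 24 h and 12.5 FPKM at PDP 3 h (log2 ratio -1.58, SE bound 0.47). TRMT61A and TRMT6, the subunits of an adenosine methyltransferase, had -1.57 (SE bound 0.31) and -1.01 (SE bound 0.30). DUS3L, a dihydrouridine synthase gene, had 26.0 FPKM at PDP 24 h and 65.0 FPKM at PDP 3 h (log2 ratio -1.32, SE bound 0.43). METTL1, which makes 7-methylguanosine, had 12 FPKM at PDP 24 h and 26.3 FPKM at PDP 3 h. The SE bound of METTL1 was 0.81, for a log2 ratio of -1.13.

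Of 17 genes of the NuA4 histone acetyltransferase complex, also listed after values were seen, 3 were at least 2-fold lower at PDP 24 h (median -0.29). The share over all compared genes was 3.04%. EPC2, a scaffold of the complex, had 9.62 FPKM at PDP 24 h and 26.1 FPKM at PDP 3 h (log2 ratio -1.44, SE bound 0.47). Its paralog EPC1 had 5.55 FPKM at PDP 24 h and 12.8 FPKM at PDP 3 h (log2 ratio -1.21, SE bound 0.58). ING3, a histone reader subunit, had 11.4 FPKM at PDP 24 h and 24.2 FPKM at PDP 3 h (log2 ratio -1.09, SE bound 0.41). KAT5, the catalytic subunit, had 25.5 FPKM at PDP 24 h and 33.9 FPKM at PDP 3 h (log2 ratio -0.41, SE bound 0.54).

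Of 16 compared neurofilament and neuronal surface genes, again listed after values were seen, 8 were at least 2-fold higher at PDP 24 h and none was lower (median 0.98). Over all compared genes these shares were 7.91% and 3.04%. PPFIA4, a liprin of synapses, had 26.3 FPKM at PDP 24 h and 6.26 FPKM at PDP 3 h (log2 ratio 2.07, SE bound 0.75), with 64.4 FPKM at PDP 72 h and 6.39 FPKM in DMSO. NRN1, a membrane-bound neuritin, had 118 FPKM at PDP 24 h and 57.4 FPKM at PDP 3 h (log2 ratio 1.04, SE bound 0.29), and NEFM, the medium neurofilament chain, had 83.8 FPKM at PDP 24 h and 40 FPKM at PDP 3 h (log2 ratio 1.07, SE bound 0.34). HEK 293 cells express neurofilament genes, and the lineage genes TUBB3, SYP and GAP43 stayed within 2-fold.

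The authors' deposited 3 h table called 17 genes against DMSO (0.115% of 14751). Some of these had their highest level of the 4 conditions at PDP 24 h. SLC25A6, a mitochondrial ADP/ATP carrier gene, had 28.8 FPKM at PDP 24 h, 18.2 FPKM at PDP 3 h, 10.7 FPKM at PDP 72 h and 10.2 FPKM in DMSO (log2 ratio of 24 h over 3 h 0.66, SE bound 0.36). RPL3P4, a ribosomal protein pseudogene, had 101 FPKM at PDP 24 h, 49.7 FPKM at PDP 3 h, 27.2 FPKM at PDP 72 h and 21.7 FPKM in DMSO. RPL13AP5 had 82.8 FPKM at PDP 24 h and 47.9 FPKM at PDP 3 h. Pseudogene reads cannot be told apart with certainty from those of the parent gene. GNAZ, a G protein alpha subunit gene, had 9.10 FPKM at PDP 24 h, 5.60 FPKM at PDP 3 h, 4.86 FPKM at PDP 72 h and 3.18 FPKM in DMSO.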
